A study of Homo sapiens with 8 samples.

Results

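The genes described here encode interferon-induced proteins of the cell surface and of internal membranes: IFITM1, IFITM2, IFITM3, IFI27, IFI6, LY6E, BST2 and LAMP3. They are 8 of the 7713 genes that have a probe set annotated with exactly 1 gene symbol on the HG-Focus array, a short-oligonucleotide expression array. The genes were chosen by symbol after the response of these cells to the HSD17B14 plasmid was known, so the measured values behind the choice are the changes of HSD17B14 over vector arrays. Those changes are given below as a description, and the comparison of the 2 lines in vector-transfected cells is the one that is tested. Its vector arrays also enter the changes behind the choice, so this test and its p-values are not independent of how the genes were picked.

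ZR75-1 (ER + per the labels) and SKBR3 (ER - per the labels) are established breast cancer cell lines. The 8 arrays form 4 groups of 2: ZR75-1 transfected with a plasmid that carries HSD17B14, a 17-beta-hydroxysteroid dehydrogenase, ZR75-1 given an equal amount of the empty vector, and SKBR3 under the same 2 conditions. The culture medium held no phenol red and 4% serum. Cells of every group received FuGene-6 reagent at 24 h after seeding and were harvested at 48 h after transfection, so the controls too were exposed to reagent and plasmid DNA, and no untreated cells were compared. The labels do not say whether the duplicates came from separate cultures, and the tests therefore speak only of the spread between these arrays, which may be technical. The population of transfected cells was read in bulk, and fewer responding cells cannot be told apart from less RNA per cell.

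Type I interferons bind a cell surface receptor and, through receptor-bound kinases, activate transcription factors that bind GAAA-type response elements in the promoters of interferon-stimulated genes. The IFITM proteins are small transmembrane proteins that hinder the fusion of enveloped viruses with the cell surface (IFITM1) or with endosomes (IFITM2 and IFITM3). BST2 (tetherin) holds budding virions at the plasma membrane, LY6E is a GPI-anchored surface protein of the LY6 family, IFI27 and IFI6 are small hydrophobic proteins of mitochondria and the endoplasmic reticulum, and LAMP3 is a lysosome-associated glycoprotein also known from mature dendritic cells.

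The response element was searched for in RefSeq promoters of GRCh38.p14, each running from 250 bases before to 50 bases after the annotated start. The motif was GAAANNGAAA on both strands, with overlapping matches counted. Of the 8 genes, 5 matched the promoter table by symbol, and each of the 5 held the motif. It was present in 3.57% of all 35116 promoters in the table, which belong to 27305 genes, of which 4.38% held it in at least 1 promoter. Among other interferon effector genes 24 of 37 matched genes held it, among interferon signalling genes 1 of 12, and among membrane proteins not known for interferon induction 1 of 14. The stretches that carry the matches before the start are shown for each of the 5 genes found in the promoter table, and capitals mark the motif matches.
IFITM1, chr11:313975-314034, plus strand: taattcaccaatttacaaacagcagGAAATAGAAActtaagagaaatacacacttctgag
IFITM3, chr11:320861-320937, minus strand: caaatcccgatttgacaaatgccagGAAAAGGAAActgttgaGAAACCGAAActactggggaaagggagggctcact
IFI27, chr14:94110603-94110675, plus strand: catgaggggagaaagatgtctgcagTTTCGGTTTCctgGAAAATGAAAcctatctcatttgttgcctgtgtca
IFI6, chr1:27672251-27672373, minus strand: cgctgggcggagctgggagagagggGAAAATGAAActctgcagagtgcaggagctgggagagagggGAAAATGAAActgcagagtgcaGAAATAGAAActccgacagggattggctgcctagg
BST2, chr19:17405720-17405785, minus strand: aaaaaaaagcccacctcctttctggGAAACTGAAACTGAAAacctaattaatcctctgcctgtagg

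IFI6 held 3 matches, of which the first 2 have the same 10 letters, and IFITM3 held 2. In BST2 the 2 matches overlap and share 1 GAAA, and in IFI27 1 of the 2 lies on the opposite strand. IFITM1 had a second match, 6 bases before to 4 bases after the start, which is not printed. IFI27 has a second annotated start, from which the same 2 matches lie further away. A match is a description of these letters and shows no binding.

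**Figure D1:**
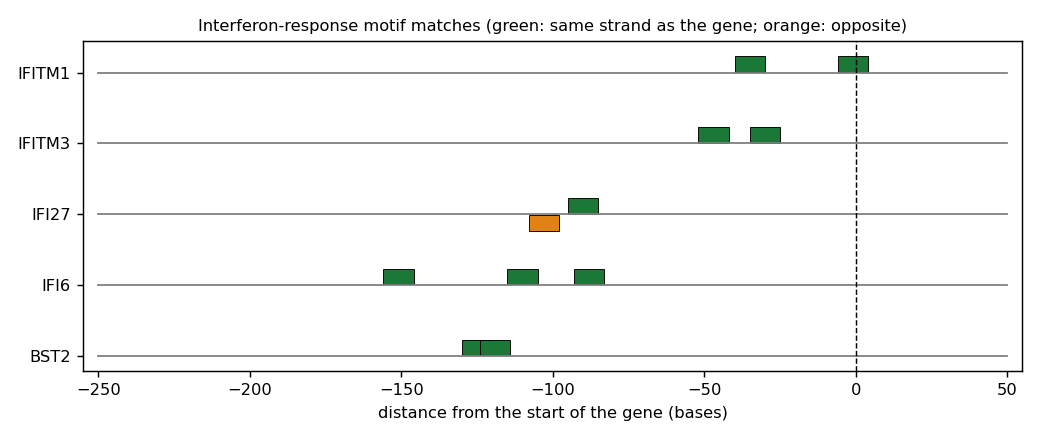
Position of each motif match (bars) relative to the first annotated start of 5 genes (dashed line at 0, x axis in bases), with matches on the gene's strand drawn above the line and the opposite strand below it. Matches of IFITM1 and IFITM3 lie within 52 bases of the start, and those of IFI27, IFI6 and BST2 lie between 84 and 156 bases before it.

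Signals are the deposited MAS5 intensities on a linear scale, and log2 values were taken after raising values under 1 to 1. A probe set was tested when it lay above its array's 40th percentile on at least 2 arrays, and a call means a Benjamini-Hochberg adjusted p under 0.05 over all 6251 tested probe sets. Each of the 8 genes has 1 probe set, and all 8 passed the filter, 7 of them on 8 arrays and LAMP3 on 6. The probe sets of IFITM2 and IFITM3 are of the x_at kind and that of IFITM1 of the s_at kind, which can bind related transcripts, so signal may be shared among these related neighbours on chromosome 11.

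HSD17B14 itself read 107.5 and 135.3 in ZR75-1 cells given its plasmid, against 17.8 and 2.1 in vector cells. The SKBR3 arrays gave 650.7 and 743.6 against 2 and 4.2. ERBB2, amplified in SKBR3 cells, read only 25.9 to 46.8 on the arrays labelled SKBR3, against 95.9 to 226 on ZR75-1 arrays, so those cells are called SKBR3-labelled. GRB7 and STARD3, listed with ERBB2 for its amplicon, read 4.1 to 14.9 and 27.5 to 36.4 on SKBR3 arrays. On ZR75-1 arrays they read 8.9 to 67.7 and 24.8 to 30.3. ESR1 followed the labels, at 194.5 to 341.6 in ZR75-1 and 14.9 to 24.6 in SKBR3-labelled cells. TFF1, of the same ER list, read 1874.1 to 2767.7 in ZR75-1 but also 962.4 to 1073.3 in SKBR3-labelled cells. PGR did not pass the filter, at 2.6 to 22.8 in ZR75-1 and 0.4 to 2.5 in SKBR3-labelled cells. Of 9 leukocyte markers 7 had a probe set, and their summed signal was 119.8 and 83.7 with HSD17B14 and 81.8 and 74.6 with vector in ZR75-1, and 132.8 and 133 against 121.4 and 86 in SKBR3-labelled cells. On every array 4 to 6 of the 7 read below 17.6, which is the largest 40th percentile of any array and serves as the floor below, and PTPRC (CD45) did so on all of them. Of these markers HLA-DRA, an MHC class II chain, read 34.4 and 29.6 with HSD17B14 against 3.6 and 5.1 with vector in SKBR3-labelled cells, which was not called, and 12.5 and 32.7 against 10.8 and 13.7 in ZR75-1. CD83 read 62.9 and 77.7 against 51.2 and 52.6 in SKBR3-labelled cells, and 20.2 and 12.2 against 16.8 and 23.2 in ZR75-1. Among vector arrays it was called lower in ZR75-1 (log2 -1.39, limma adjusted p = 0.0202), as 1 of 4 tested leukocyte markers. Its plasmid changes were not called. The actin 3'/5' ratio, a measure of RNA integrity, was 2.83 and 2.66 against 2.03 and 2.02 in ZR75-1, HSD17B14 first. In SKBR3-labelled cells it was 2.28 and 3.09 against 3.6 and 3. The GAPDH 3'/5' ratio went the other way in ZR75-1, at 0.896 and 0.883 against 1.08 and 1.04. In SKBR3-labelled cells it was 0.812 and 0.886 against 0.912 and 0.868. The part of the leukocyte markers and of these ratios in the plasmid changes was not tested beyond the fit with the actin ratio given below.

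In vector-transfected cells the 8 genes separated into 2 sets by line. The 3 IFITM genes were lower in ZR75-1 than in SKBR3-labelled cells, by 1.47-fold to 4.43-fold, while IFI27, IFI6, LY6E, BST2 and LAMP3 were higher, from 1.43-fold for IFI27 to 6.46-fold for LY6E and at least 8.8-fold for LAMP3. All 8 passed limma's test, 5 higher and 3 lower, where 40.2% of all tested probe sets passed, 19.6% higher and 20.7% lower. The signals of the lines did not overlap for any of the 8, as for 66.2% of probe sets. The lines differ across much of the array, and the vector arrays of this comparison also enter the plasmid changes by which the genes were picked. The actin ratio differs between the vector groups too, and with it as a covariate 4 of the 8 were called (IFITM2, IFITM3, LY6E and LAMP3), beside 9.13% of all tested probe sets, with the same direction for all 8. The 4 that lost their call were then at -0.47 for IFITM1, 0.49 for IFI27, 1.13 for IFI6 and 1.49 for BST2 on the log2 scale.

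**Figure D2:**
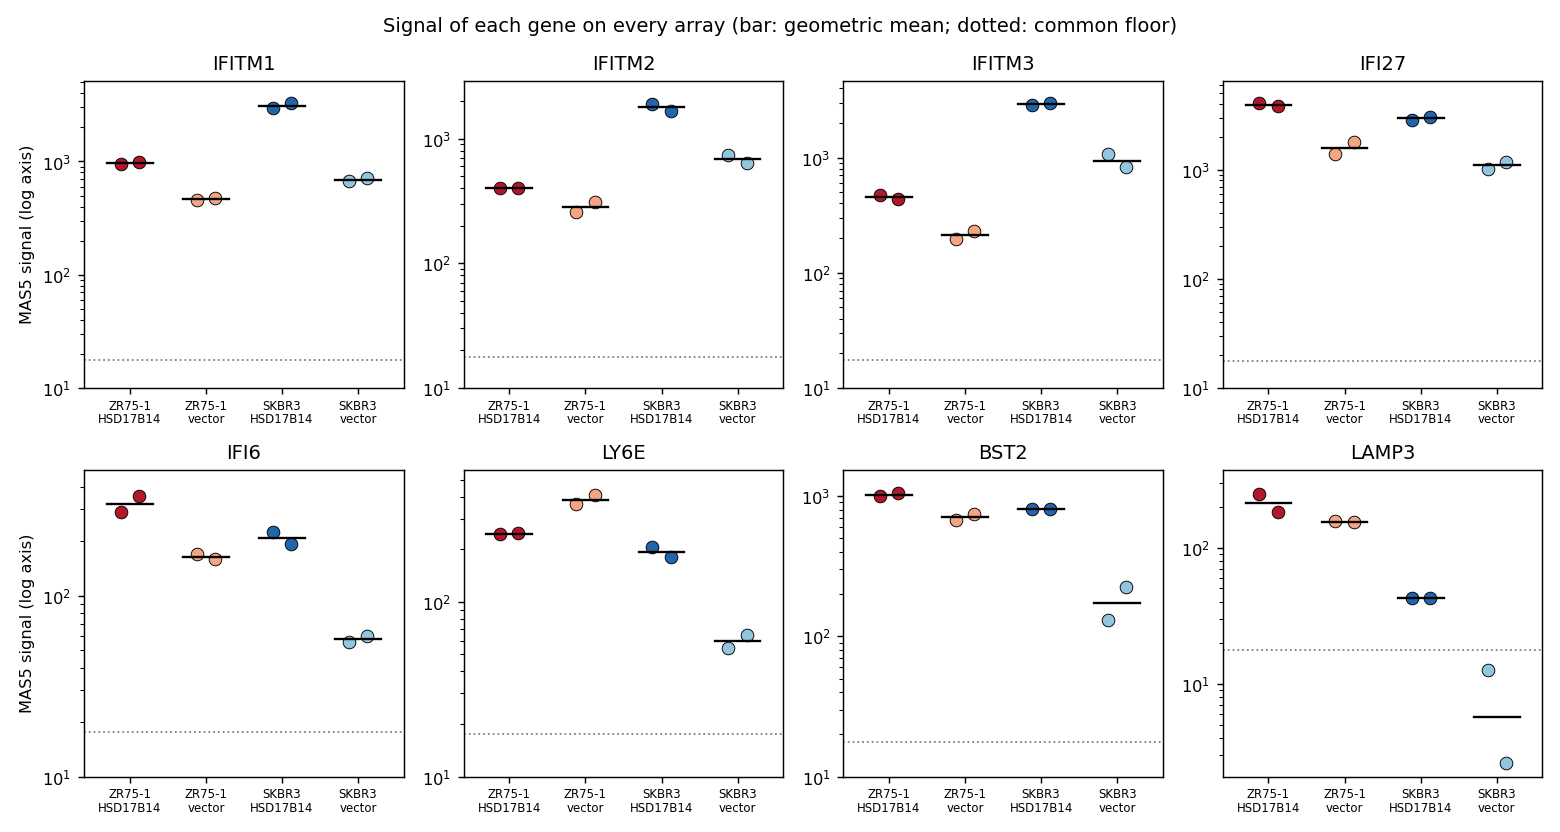
MAS5 signal (log axis) of the 8 genes on every array; points are arrays, bars geometric means of 2 arrays, and the dotted line the common floor of 17.6. The IFITM genes are highest in SKBR3-labelled cells with HSD17B14, IFI27, IFI6, BST2 and LAMP3 in ZR75-1 with HSD17B14, and LY6E in ZR75-1 with vector.

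IFITM1 had signals of 949.8 and 998 with HSD17B14 and 460.7 and 479 with vector in ZR75-1. In SKBR3-labelled cells it had 2956 and 3296.4 with HSD17B14 and 668.6 and 717 with vector. The groups did not overlap, and each step of their order, ZR75-1 vector, SKBR3-labelled vector, ZR75-1 HSD17B14 and SKBR3-labelled HSD17B14, was wider than the spread within the groups. Among vector arrays IFITM1 was lower in ZR75-1 (log2 -0.56 ± 0.13, limma SE, n = 2 arrays per group, limma adjusted p = 0.00523). The call was lost with a prior that does not depend on the mean (adjusted p = 0.0516).

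IFITM3 had 476.9 and 437.6 with HSD17B14 and 195.1 and 230 with vector in ZR75-1. SKBR3-labelled arrays gave 2887.7 and 2983.1 with HSD17B14 and 1064.8 and 826.1 with vector. Both ZR75-1 groups lay under both SKBR3-labelled groups, so that ZR75-1 cells with HSD17B14 still read below SKBR3-labelled cells without it. The line difference among vector arrays was -2.15 ± 0.16 on the log2 scale (limma adjusted p = 1.03e-06).

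IFITM2 gave the same order of groups, with 402.9 and 404.6 against 257.1 and 312.2 in ZR75-1 (HSD17B14 against vector). The SKBR3-labelled signals were 1914.1 and 1681 against 742.3 and 640.2. Its line difference among vector arrays was -1.28 ± 0.15 (limma adjusted p = 4.04e-05). IFITM1, which unlike these 2 has its vector groups adjacent in the order, was the 1 member of the family whose ZR75-1 level with HSD17B14 passed the SKBR3-labelled vector level.

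IFI27 had the smallest fitted line difference of the 8 among vector arrays, just under that of IFITM1. Its signals were 4112.4 and 3791.2 with HSD17B14 and 1381.4 and 1774 with vector in ZR75-1. The SKBR3-labelled arrays had 2860.4 and 3026.8 with HSD17B14 and 1017.6 and 1170 with vector. The vector groups did not overlap, but the gap between them was smaller than the spread within ZR75-1. The line difference of 0.52 ± 0.16 passed (limma adjusted p = 0.0228), but not without ZR75-1 vector array 2 (0.34, adjusted p = 0.125), without SKBR3-labelled vector array 1 (0.42, adjusted p = 0.14) with median centring (0.43, adjusted p = 0.153) or with a prior that does not depend on the mean (0.52, adjusted p = 0.106).

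IFI6, in the same small family as IFI27, had 289.2 and 355.1 with HSD17B14 and 168.7 and 158.7 with vector in ZR75-1. In SKBR3-labelled cells it had 223.7 and 193.8 with HSD17B14 and 55.5 and 60.1 with vector. The SKBR3-labelled vector arrays stood well below the other 6, and the next 2 groups, ZR75-1 vector and SKBR3-labelled HSD17B14, did not differ beyond their spread. Its line difference among vector arrays was 1.50 ± 0.18 (limma adjusted p = 4.66e-05).

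LY6E did not follow the others in ZR75-1. It had 243.6 and 247.4 with HSD17B14 and 364.9 and 406.8 with vector in that line. In SKBR3-labelled cells it had 206.3 and 180.1 with HSD17B14 and 54.7 and 65 with vector. The HSD17B14 arrays of the 2 lines lay between the vector arrays, so the widest gap between lines was that of the vector cells, 2.69 ± 0.17 on the log2 scale (limma adjusted p = 3.72e-07).

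BST2 had 997.7 and 1046.1 with HSD17B14 and 679.5 and 749.5 with vector in ZR75-1. Those labelled SKBR3 had 808.7 and 807.6 with HSD17B14 and 130.8 and 225.9 with vector. The SKBR3-labelled vector arrays were the low ones, and ZR75-1 vector and SKBR3-labelled HSD17B14 arrays did not differ beyond their spread. The line difference among vector arrays was 2.05 ± 0.21 (limma adjusted p = 1.39e-05).

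LAMP3 had 247.6 and 183.1 with HSD17B14 and 157 and 152.8 with vector in ZR75-1, groups that did not differ beyond their spread. The SKBR3-labelled arrays read 42.6 and 42.7 with HSD17B14 and 12.5 and 2.6 with vector. The SKBR3-labelled vector signals lay under the floor, so the line difference is a bound of at least 8.8-fold (limma adjusted p = 3.92e-05). LAMP1 and LAMP2, lysosomal proteins of the same family not known for interferon induction, had ZR75-1 minus SKBR3-labelled differences of 0.70 (adjusted p = 0.00519) and 0.69 (adjusted p = 0.0853) among vector arrays.

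Among HSD17B14-transfected arrays the fitted line difference was smaller in size than among vector arrays for LY6E, BST2, IFI6 and LAMP3, larger for the 3 IFITM genes, and for IFI27 it differed by less than its error. The ZR75-1 minus SKBR3-labelled difference was 0.35 ± 0.17 for LY6E, 0.34 ± 0.21 for BST2, 0.62 ± 0.18 for IFI6, 0.42 ± 0.16 for IFI27 and 2.32 ± 0.56 for LAMP3. For IFITM1, IFITM2 and IFITM3 it was -1.68 ± 0.13, -2.15 ± 0.15 and -2.68 ± 0.16. These values hold the plasmid response by which the genes were picked and are given as a description.

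**Figure D3:**
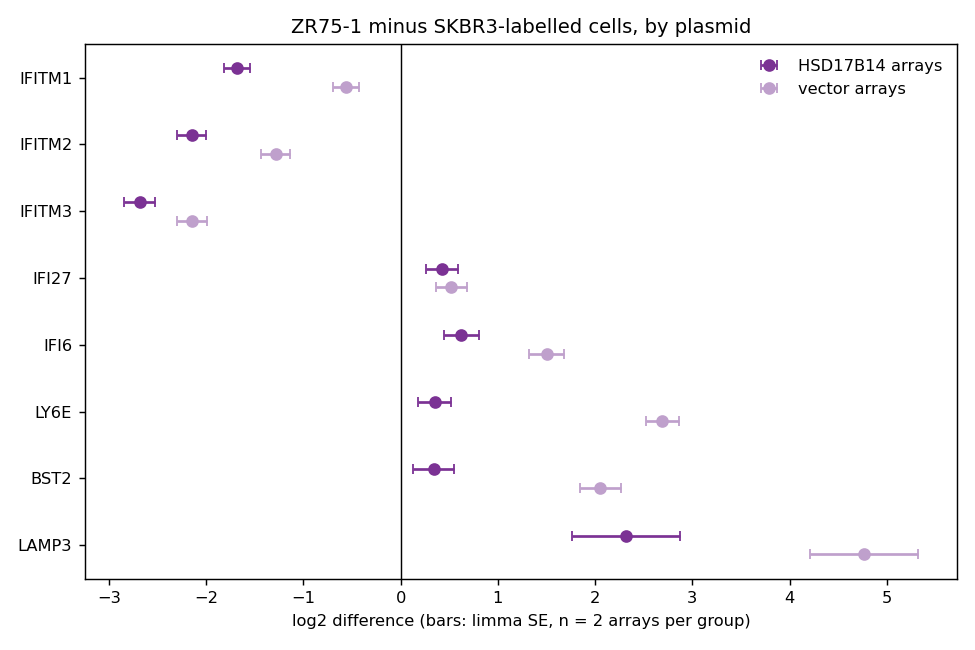
Log2 difference of ZR75-1 minus SKBR3-labelled cells (x axis) for each gene, on HSD17B14 arrays (dark) and vector arrays (light), with bars of 1 limma SE, n = 2 arrays per group. The IFITM genes lie below 0 and the other 5 above 0 in both; the fitted LAMP3 value on vector arrays rests on signals under the floor.

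With HSD17B14 in SKBR3-labelled cells, all 8 genes were higher than with vector. IFITM1 and BST2 rose 4.51-fold and 4.70-fold, IFI6 3.61-fold, LY6E 3.23-fold, IFITM3 3.13-fold, IFI27 2.70-fold and IFITM2 2.60-fold, and LAMP3 rose at least 2.42-fold. On the log2 scale the changes were 2.17 ± 0.13 for IFITM1, 2.23 ± 0.21 for BST2, 1.85 ± 0.18 for IFI6, 1.69 ± 0.17 for LY6E, 1.65 ± 0.16 for IFITM3, 1.43 ± 0.16 for IFI27 and 1.38 ± 0.15 for IFITM2. The limma fit called 8 of 8 higher, where it called 0.944% of all tested probe sets higher. In 8 of 8 the HSD17B14 arrays did not overlap the vector arrays, as in 19.5% of tested probe sets. The genes were picked with this contrast known, so nothing is read from either count.

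The size for LAMP3 rests on 2 vector signals under the floor. Its fitted change of 2.90 was 1.77 without SKBR3-labelled vector array 2 and 4.04 without array 1, and it was not called when any 1 of the 6 other arrays was left out (2.90) or when values were raised to the floor (1.28). With a variance prior that does not depend on the mean, 1 of the 8 genes was called, IFITM1, beside 0.144% of all tested probe sets.

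In ZR75-1 the fit called 4 of the 8 higher with HSD17B14: IFI27 at 1.33 ± 0.16 on the log2 scale (2.52-fold), IFITM3 at 1.11 ± 0.16 (2.16-fold), IFITM1 at 1.05 ± 0.13 (2.07-fold) and IFI6 at 0.97 ± 0.18 (1.96-fold). It called 0.736% of all tested probe sets higher, and nothing is read from the count. BST2 at 0.52 ± 0.21, IFITM2 at 0.51 ± 0.15, LAMP3 at 0.46 ± 0.56 and LY6E at -0.65 ± 0.17 were not called. The HSD17B14 arrays lay above the vector arrays without overlap for 7 genes, as for 20.7% of tested probe sets, and below them for LY6E. LY6E was 1.57-fold lower, and this was called with log2 of the signal plus 32 (-0.59).

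With each of the 8 arrays left out in turn, the fitted change ran from 1.02 to 1.09 for IFITM1 and from 1.15 to 1.52 for IFI27. Leaving out an SKBR3-labelled array alters only the estimate of the spread there, not the change itself. IFI6 was not called when any 1 array other than the SKBR3-labelled vector arrays was left out (0.82 to 1.12), with median centring (1.17) or with a term for high or low spike-in arrays (0.94), and IFITM3 not without ZR75-1 HSD17B14 array 1 (1.05). With the actin ratio as a covariate limma called 0 of the 4 (5 of the 8 at an unadjusted p under 0.05), at similar sizes of 1.35 for IFI27, 1.21 for IFI6, 0.99 for IFITM1 and 0.90 for IFITM3, and it called only 0.016% of all tested probe sets in either direction. With a prior that does not depend on the mean it also called 0 of the 4 (6 of the 8 at an unadjusted p under 0.05), and 0.208% of all. Both shares are at the adjusted p. Without these alternatives, 522 of the 6251 tested probe sets were higher and 601 lower at an unadjusted p under 0.05 in ZR75-1.

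**Figure D4:**
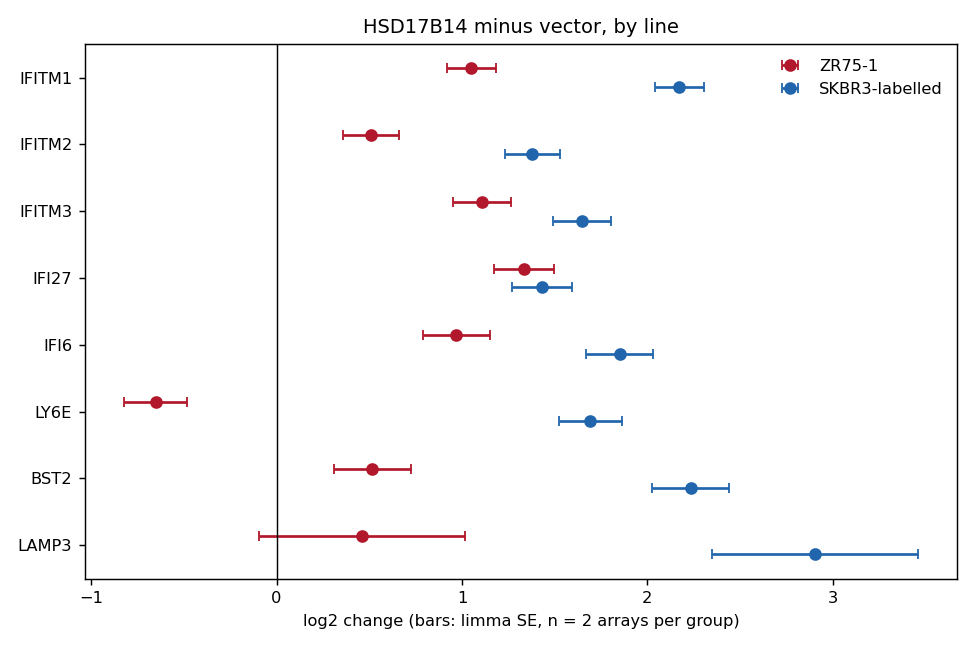
Log2 change of HSD17B14 minus vector (x axis) for each gene in ZR75-1 (red) and SKBR3-labelled cells (blue), with bars of 1 limma SE, n = 2 arrays per group. The SKBR3-labelled values lie between 1.38 and 2.90, and the ZR75-1 values between -0.65 and 1.33; the LAMP3 value in SKBR3-labelled cells rests on vector signals under the floor.

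The fitted change in ZR75-1 lay below that in SKBR3-labelled cells for each of the 8 genes, for IFI27 by less than its error. The difference of the changes, ZR75-1 minus SKBR3-labelled, was -2.34 ± 0.24 for LY6E, -1.72 ± 0.30 for BST2 and -1.12 ± 0.19 for IFITM1, the 3 genes that the interaction contrast called, where 0.56% of all tested probe sets were called in that direction. It was -0.88 ± 0.25 for IFI6, -0.87 ± 0.21 for IFITM2, -0.54 ± 0.22 for IFITM3 and -0.10 ± 0.23 for IFI27. The LAMP3 value of -2.44 ± 0.79 again rests on signals under the floor. For IFI27 the sign turned with median centring (0.03) and without ZR75-1 vector array 2 (0.084) or SKBR3-labelled vector array 1 (0.0043).

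LY6E kept its call with each of the 8 arrays left out in turn. BST2 lost its call when any 1 array other than the SKBR3-labelled vector arrays was left out (-1.79 to -1.64), and with median centring (-1.59), no filter or values raised to the floor (both -1.72). IFITM1 lost its call without any 1 of the 4 HSD17B14 arrays and without SKBR3-labelled vector array 1 (-1.20 to -1.04), and with median centring (-0.99). LAMP3 was called only without SKBR3-labelled vector array 1 (-3.58), and its value was -1.31 without array 2.

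Bacillus control transcripts, spiked in on these arrays, read high on 3 arrays and low on 5. Both SKBR3-labelled groups held 1 array of each kind, and there the median change of the 8 genes was 1.84 among low arrays and 1.76 among high ones, each 1 array against 1. In ZR75-1 it was 0.75 among low arrays, and no high array carried vector. Among low vector arrays, both of ZR75-1 against 1 SKBR3-labelled, the line differences were -2.33 for IFITM3, -1.39 for IFITM2 and -0.51 for IFITM1. For the other 5 genes they ran from 0.62 (IFI27) to 3.63 (LAMP3). Their median over all 8 genes, 1.09, describes neither set.

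Other interferon genes gave the surroundings of these changes. Of 45 symbols listed as interferon effectors (RIGI and DDX58 name the same gene), 33 were tested, IRF7 among them, which is also listed as a signalling gene. In SKBR3-labelled cells 28 rose with HSD17B14, 0 fell by limma (also 0 at an unadjusted p under 0.05), and the median log2 change was 1.52, against -0.01 over all tested probe sets and 1.77 for the 8 membrane protein genes. Of all tested probe sets 0.944% were called higher in these cells. OAS1, of the 2'-5' oligoadenylate synthetases, was at 2.58, the antiviral GTPase MX1 at 1.89, UBE2L6, the ISG15-conjugating enzyme, at 2.12 and the chemokine CXCL10 at 2.93. The 5 effectors not called included ISG15 itself, at 0.22.

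In ZR75-1, 6 of the same 33 effectors rose, 0 fell (also 0 at an unadjusted p under 0.05), and the median was 0.43, against -0.04 over all tested probe sets and 0.74 for the 8 genes. Of all tested probe sets 0.736% were called higher in that line. MX1 was at -0.18 and OAS1 at 0.46 there, neither called. CXCL10 was at 1.76, XAF1 at 1.14, ISG20, an exonuclease, at 0.85, IFIT3 at 0.68 and UBE2L6 at 0.66, all called. The difference of changes was called lower for 13 of the 33, beside 0.56% of all tested probe sets. Among vector arrays 19 of the 33 were higher in ZR75-1 and 6 lower, with a median of 0.84. Of all tested probe sets 19.6% were called higher in that comparison and 20.7% lower. This list too was drawn up with these results known.

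Of 17 genes of interferon signalling, 13 were tested, and 2 rose in SKBR3-labelled cells, beside 0.944% of all tested probe sets. They were USP18, which removes ISG15 and dampens the receptor, at 2.02 and the transcription factor IRF7 at 0.98. In ZR75-1 limma called 0 of the 13 (2 higher and 0 lower at an unadjusted p under 0.05), with USP18 at -0.05 and IRF7 at -0.35. The highest fitted changes of the list, 2.67 for the inhibitor SOCS1 in SKBR3-labelled cells and 2.75 for the receptor chain IFNAR1 in ZR75-1, were not called, and their vector signals lay under the floor (2 and 1.8 for SOCS1, 4 and 1.1 for IFNAR1). USP18 signals were 582.6 and 497.5 against 546.2 and 569.2 in ZR75-1 and 246.8 and 211.8 against 67 and 47.3 in SKBR3-labelled cells, HSD17B14 against vector, so ZR75-1 carried the higher level under both plasmids. IFNB1, interferon beta, read 173.8 and 141.7 with HSD17B14 and 119.4 and 130.7 with vector in ZR75-1, and 21.9 and 19 against 23.5 and 1 in SKBR3-labelled cells. Its line difference among vector arrays was called (adjusted p = 0.00314), and its plasmid changes were not; the SKBR3-labelled vector arrays lay on both sides of the floor.

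Of 20 listed membrane proteins of lysosomes, endosomes and the cell surface not known for interferon induction, 17 were tested. In SKBR3-labelled cells limma called 0 of them (4 higher and 1 lower at an unadjusted p under 0.05), with a median change of 0.21. In ZR75-1 it called 0 higher and 1 lower (2 and 1 at an unadjusted p under 0.05), the tetraspanin CD81 at -1.09. It called only 0.992% and 1.52% of all tested probe sets in SKBR3-labelled cells and ZR75-1, so few calls would be found in most lists of this size. At an unadjusted p under 0.05, 310 of all 6251 were higher and 239 lower in SKBR3-labelled cells, and 522 and 601 in ZR75-1. LAMP1 was at -0.28 and LAMP2 at 0.20 in SKBR3-labelled cells, the line in which LAMP3 rose.

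**Figure D5:**
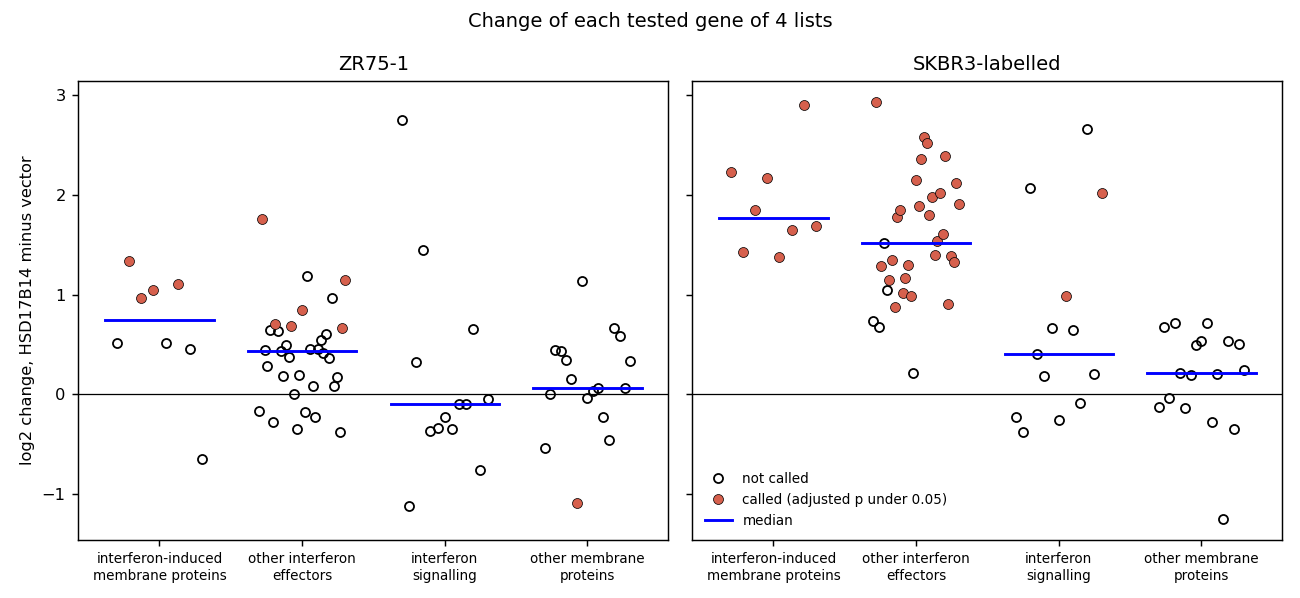
Log2 change of HSD17B14 minus vector (y axis) for each tested gene of 4 lists in ZR75-1 (left) and SKBR3-labelled cells (right); filled points were called, open points not, and blue lines are medians. The medians of the 8 genes are 0.74 and 1.77, of other effectors 0.43 and 1.52, of signalling genes -0.10 and 0.40, and of other membrane proteins 0.07 and 0.21.

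The profile of the 8 genes over the arrays was summarised as the median of their log2 signals, each centred on its own mean. The 3 tested genes nearest to it by root mean square difference over 8 arrays were the MHC class I gene HLA-C (0.19), the immunoproteasome subunit PSMB8 (0.20) and XAF1 (0.21). HLA-C had 1857.6 and 1959.7 against 1519.9 and 1437 in ZR75-1, and 1849.5 and 2068.4 against 594.5 and 735.1 in SKBR3-labelled cells, HSD17B14 against vector, so its low arrays were the SKBR3-labelled vector ones. Among the 8 themselves IFI27 (0.23) and IFI6 (0.29) lay nearest the median profile, and IFITM3 (1.50) and LAMP3 (1.68) furthest, at opposite sides in the line difference.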

How the data were processed

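Total RNA (5 ug) of 8 samples was hybridised to 8 HG-Focus arrays. The deposited values are signal intensities, 1 per probe set and array, computed by the authors with MAS5 according to the submitters' processing notes; the version is not given in the sources used here. Every array has a trimmed mean of 100.1. Of 8793 probe sets 47 controls were left out. Values under 1 were raised to 1 before log2; array medians differed by 0.363, under the 0.5 set for centring. limma 3.58.1 in R 4.3.3 fitted 1 mean per group over all 8 arrays, moderated with eBayes under a prior variance that follows the mean level, adjusting over 6251 probe sets. The number of arrays limits precision. Folds are ratios of geometric means; where a group lay under 17.6, against that floor. Members and lists were chosen with earlier results of these data known. All 8 genes were named, with up to 4 further genes per list by moderated t, label checks and the 3 nearest profiles. LAMP1, LAMP2, IFNB1, SOCS1, IFNAR1, HLA-DRA, CD83, CD81 and ISG15 were named after their values were seen. So were PGR, TFF1, GRB7, STARD3 and the ZR75-1 values of OAS1 and MX1. Alternatives were normalization, filter, pseudocount, prior, floor, replicate block and leaving out arrays; spike-in level, actin ratio and the line comparison among HSD17B14 arrays were added after seeing the data. Figures used matplotlib 3.10.9.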

Additional observations from a re-analysis of the deposited data

Results flagged for a closer look

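By the interaction contrast the response to HSD17B14 differed between ZR75-1 and SKBR3-labelled cells for 3 of the 8 genes, beside 0.56% of all tested probe sets called lower. The ZR75-1 minus SKBR3-labelled differences were -2.34 for LY6E, -1.72 for BST2 and -1.12 for IFITM1 on the log2 scale. With a prior not dependent on the mean, or with the actin ratio as a covariate, limma called 0 of the 8 and 0% of all. BST2 and IFITM1 were not called with median centring either (-1.59 and -0.99). For LY6E the changes also had opposite signs, -0.65 in ZR75-1 and 1.69 in SKBR3-labelled cells. The genes were picked with both changes known, so these values describe and do not support. HSD17B14 itself read lower in ZR75-1 than in SKBR3-labelled cells given its plasmid (geometric means 120.6 and 695.6). The part of that level in these differences was not tested.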

How the results depend on the processing

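Across all settings tried, 60 of 72 recomputed counts of called genes stayed within 1.5 times the count given. With the actin ratio as a covariate, the line comparison among vector arrays called 4 of 8 genes, beside 9.13% of all tested probe sets. Without any 1 array its smallest differences ran from 0.34 to 0.70 for IFI27 and from -0.61 to -0.51 for IFITM1. With a prior not dependent on the mean limma called 1 gene in SKBR3-labelled cells, 0 in ZR75-1 and 0 for the difference of changes. At an unadjusted p under 0.05 these were 8, 6 and 5. The shares called of all probe sets, at the adjusted p here and below, were 0.144%, 0.208% and 0%. In the line comparison limma then called 6, without IFITM1 and IFI27, beside 33.3% of all tested probe sets. With the actin ratio it called 0 in ZR75-1 and 0 for the difference (5 and 3 at an unadjusted p under 0.05), where it called 0.016% and 0% of all, and the LAMP3 change in ZR75-1 turned to -0.58. Without these alternatives, 310 of the 6251 tested probe sets were higher and 239 lower at an unadjusted p under 0.05 in SKBR3-labelled cells. These counts were 522 and 601 in ZR75-1, and 361 and 454 for the difference. Leaving out single arrays gave 2 to 4 calls in ZR75-1, 7 to 8 in SKBR3-labelled cells and 1 to 3 for the difference. Where these calls were fewest in ZR75-1 and for the difference, fewer of all tested probe sets were also called than with 8 arrays. In SKBR3-labelled cells the share of all went either way. Nothing particular to the 8 genes is read from these counts, since each such fit leaves 1 array in a group. Median centring moved the median change of all probe sets in ZR75-1 to 0.16, against -0.04 without it. It left 1 call for the difference, beside 0.112% of all tested probe sets, and turned the IFI27 difference to 0.0334. Leaving out single arrays gave -0.28 to 0.084 for the IFI27 difference. The cause was not tested. The replicate block is a number shared by arrays with no stated pairing (same-numbered arrays deviated with correlations of -0.04 to 0.06). With it the counts for the line comparison, SKBR3-labelled cells, ZR75-1 and the difference were 8, 8, 4 and 3, as without it. The shares of all tested probe sets called were 40.4%, 1.07%, 1.66% and 0.672%. Each gene had 1 probe set, so no other could be tried. LAMP3 in SKBR3-labelled vector cells lay under the floor, which limits its fold to a bound.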
